A study of Mus musculus with 24 samples.

Results

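The MYC and MAX network was followed through 8 of its genes, Myc, Mycn, Max, Mxd1, Mxd3, Mxd4, Mnt and Mlx, in mouse CD4 T cells measured on Affymetrix arrays. A probe set was taken when its only listed gene symbol was one of these, and each of the 8 genes had 1 such probe set. They are 8 of the 19938 genes tested. The 24 arrays form 8 groups of 3, made of 2 genotypes on the 129SvEv background and 4 states. Wild-type cells (WT) were set beside cells of mice labelled Batf1/3DKO (DKO), which lack the transcription factors BATF and BATF3. The states were naive CD4 T cells at day 0, and cells cultured under TH2-polarising conditions for 2 days, for 4 days with 2.2 ng/ml anti-CD3e, or for 4 days with 10 ng/ml anti-CD3e. The labels give no anti-CD3e dose for the day 2 cells. All cultures used soluble anti-CD3e together with anti-CD28 captured on the plate by anti-hamster IgG. The labels do not say whether the 3 arrays of a group came from separate mice or cultures, so p-values measure only the spread between these arrays, which may be technical.

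MYC and its relative N-MYC are transcription factors that bind DNA only when paired with MAX, at a short sequence called the E-box. The MXD proteins and MNT compete with MYC for MAX and recruit co-repressors, so the family holds activators and repressors that share 1 partner. MLX is a parallel partner that pairs with MNT, MXD1, MXD4 and the glucose-responsive factor MondoA (Mlxip). In T cells, MYC is induced by antigen receptor signalling and is known for driving growth, glycolysis, glutamine use and ribosome production, and MXD and MNT are associated with resting or exiting cells. BATF and BATF3 are AP-1 family factors that bind DNA with JUN proteins and often beside IRF4.

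The E-box is the sequence through which network proteins can act on the network's own genes, so the member promoters that hold one are shown. RefSeq promoters of mouse build GRCm38.p6, running from 250 bases before to 50 bases after the transcript start, matched 7 of the 8 genes, and Myc had no entry. The motif CACGTG, which reads the same on both strands, was found in 4 of the 7 promoters, against 7.15% of all 32851 promoters. Each sequence is printed 5′ to 3′ on the gene's strand with the E-box in capitals. The Max stretch lies at chr12:76962246-76962281 on the minus strand, with the E-box from base -3 to base 3 around the start. The Mxd4 stretch lies at chr5:34187894-34187959 on the minus strand, with the E-box from -219 to -214. The Mnt stretch lies at chr11:74830771-74830836 on the plus strand, with the E-box from -123 to -118, and the Mlx stretch lies at chr11:101087220-101087285 on the plus strand, with the E-box from -40 to -35. Positions refer to the transcript start of the promoter entry, and the RefSeq gene start can differ. The Mlx gene starts at base 101086707, before its stretch, and the Mnt gene at base 74830806, within its stretch.
Max: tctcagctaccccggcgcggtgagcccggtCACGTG
Mxd4: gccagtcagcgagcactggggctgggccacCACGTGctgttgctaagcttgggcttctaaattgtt
Mnt: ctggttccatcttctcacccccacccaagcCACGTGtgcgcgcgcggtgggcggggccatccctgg
Mlx: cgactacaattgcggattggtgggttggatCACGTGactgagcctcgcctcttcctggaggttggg
The AP-1 motif TGANTCA, searched on both strands, was in 0 of the 7 promoters and in 7.81% of all. The 2 composite AP-1 and IRF motifs searched, known as AICE motifs, each contain TGANTCA and were also in 0 of the 7, against 0.119% and 0.125% of all. These matches describe letters in a short window and are not evidence of binding.

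The Batf probe set separated the genotypes: it read 26.7 to 52.1 on the 12 DKO arrays and 114 to 1696 on the 12 WT arrays. Batf3 read 110 to 173 in WT cells at 10 ng/ml and 20.7 to 44.3 on all other arrays. All 7 CD4 T cell markers lay above the median gene level of 32.2 in every group. The summed level of the measured TH2 markers reached 4682 to 5851 in WT cells at 10 ng/ml and 1210 to 1400 in DKO cells at that dose, and 2770 to 2936 against 1217 to 1371 at day 2. Markers of B cells, myeloid cells, dendritic cells and NK cells mostly lay at or below the median gene level; exceptions included Cd79b at 86.2 in DKO cells at 10 ng/ml, and Fcgr3 at 81.2 and Nkg7 at 41.3 in WT cells at 10 ng/ml. Of the 4 CD8 T cell markers, Cd8a (18.3 to 25.5) and Gzmk lay below the median gene level in every group and Cd8b1 above it (34.1 to 64.4). Eomes averaged 199 in WT and 595 in DKO cells at 2.2 ng/ml, and 19.1 and 45.7 at 10 ng/ml. Their part in the results below was not tested. Arrays of 1 group correlated with each other at 0.983 to 0.992. WT day 2 replicate 3 and WT 2.2 ng/ml replicate 3 stood somewhat apart from their groups, and results that turned on them are given without them. For example, Batf read 565 on the former and 819 and 781 on the other WT day 2 arrays. Irf4 read 588 on the latter and 338 and 267 on the other WT 2.2 ng/ml arrays. These 2 were picked after the data were seen. Other arrays also deviated for single genes, such as Mycn at 23.7 and 46.6 on WT 10 ng/ml replicates 1 and 2. In bulk RNA, fewer cells of a type and less RNA per cell cannot be told apart.

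Levels are intensities on a linear scale, and differences are in log2 from a limma model over all genes, called at a Benjamini-Hochberg adjusted p under 0.05. Comparisons that use the same group share its arrays. Like all genes tested, the network genes were called more often in comparisons with day 0 than between the genotypes. At day 2 against day 0, 6 of the 8 were called in WT cells, 3 higher and 3 lower, where 40.2% of all genes were called, and 3 in DKO cells, 2 higher and 1 lower, where 28.6% were. At day 4 against day 0, 2 were called at 2.2 ng/ml in WT cells (29.2% of all genes), 5 at 10 ng/ml in WT cells (36.4%), 3 at 2.2 ng/ml in DKO cells (19.9%) and 3 at 10 ng/ml in DKO cells (30.7%). Against day 0, the shares of the network genes at 2.2 ng/ml in WT cells, and at day 2 and 10 ng/ml in DKO cells, were near those of all genes. From day 2 to day 4, WT cells had 4 called at 2.2 ng/ml (11.2% of all genes) and 6 at 10 ng/ml (23.2%), and DKO cells had 3 at 2.2 ng/ml (6.17%) and 0 at 10 ng/ml (5.18%), where 1 passed an unadjusted p under 0.05.

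Between the genotypes, 0 of the 8 were called in naive cells (0.0652% of all genes called, and 0 of the 8 at an unadjusted p under 0.05). At day 2, 1 was called (2.71% of all genes). At 2.2 ng/ml, 0 were called (3.71%, with 3 at an unadjusted p under 0.05), and at 10 ng/ml 2 were (12.8%). With only 8 genes, such small counts do not set the network apart from all genes. Between the doses at day 4, 4 were called in WT cells (15.2% of all genes) and 2 in DKO cells (8.15%). The dose difference itself differed between genotypes for 3 of the 8 (6.94% of all genes). The interactions of genotype with day 2 against day 0 and with 10 ng/ml against day 0 called 0 of the 8 (1.05% and 6.52% of all genes; 2 and 1 at an unadjusted p under 0.05).

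**Figure D1:**
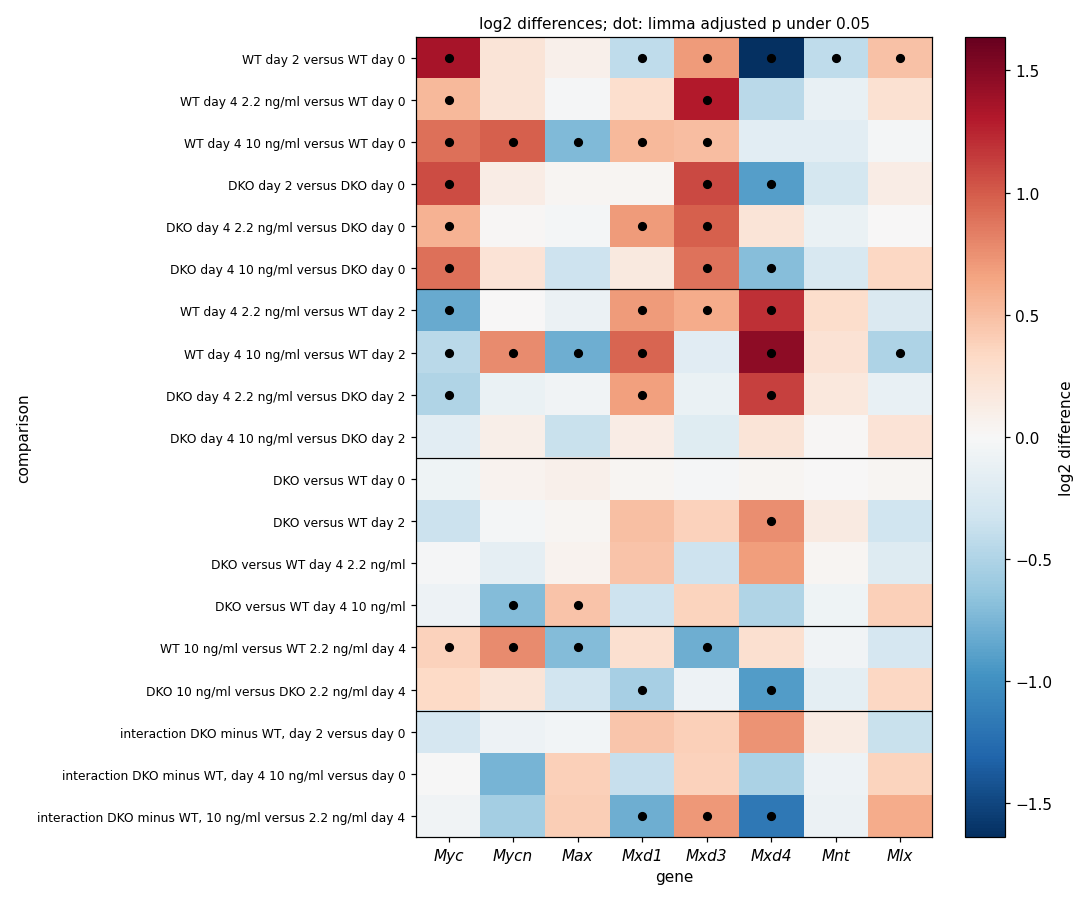
Heat map of the log2 difference of each of the 8 genes (columns) in the 19 comparisons (rows), with red for higher and blue for lower in the first-named group and a dot where limma's adjusted p was under 0.05. The Myc and Mxd3 columns are red in all 6 comparisons with day 0, Mxd4 is deepest blue at day 2, and the row of naive DKO against WT cells is nearly white.

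Myc rose in all 6 comparisons of activated with naive cells, with its highest group mean at day 2 in each genotype. In WT cells the 3 arrays read 999, 965 and 882 at day 0, 2386, 2329 and 2537 at day 2, 1283, 1259 and 1571 at 2.2 ng/ml, and 1557, 1758 and 2051 at 10 ng/ml. In DKO cells they read 894, 912 and 899 at day 0, 1640, 2138 and 1950 at day 2, 1128, 1496 and 1436 at 2.2 ng/ml, and 1644, 1737 and 1668 at 10 ng/ml. No activated array was as low as any naive array of its genotype, a separation that 50.4% of all genes showed, in either direction, at day 2 in WT cells. Myc was 2.55-fold higher at day 2 than at day 0 in WT cells (95% CI 2.12 to 3.07; log2 1.35 ± 0.13 SE; adjusted p = 6.63e-09) and 2.11-fold in DKO cells (CI 1.75 to 2.54; adjusted p = 3.85e-07). At 10 ng/ml it was 1.88-fold above day 0 in WT cells (adjusted p = 3.7e-06) and 1.87-fold in DKO cells (adjusted p = 4.8e-06). At 2.2 ng/ml the rise was smaller, 1.44-fold in WT cells (adjusted p = 0.00275) and 1.49-fold in DKO cells (adjusted p = 0.00178). These 2 calls were lost under cyclic loess, a renormalisation between arrays that follows intensity (log2 0.05, adjusted p = 0.846 in WT cells; log2 0.23, adjusted p = 0.203 in DKO cells), and the WT call also under quantile renormalisation (log2 0.17, adjusted p = 0.338). The day 2 rises stayed called under all alternatives run, at log2 0.80 in WT and 0.68 in DKO cells under loess.

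Myc had lower group means at day 4 than at day 2, but only the WT fall at 2.2 ng/ml stayed called under all alternatives. In WT cells Myc was 1.77-fold lower at 2.2 ng/ml (log2 -0.82 ± 0.13, adjusted p = 0.000144), and this held under all 15 alternatives (adjusted p 2.33e-05 to 0.00505). It was 1.36-fold lower at 10 ng/ml (adjusted p = 0.0132), a call lost under loess (adjusted p = 0.163), without WT day 2 replicate 3 (0.0565) and without WT 10 ng/ml replicate 1 (0.0945). In DKO cells it was 1.41-fold lower at 2.2 ng/ml (adjusted p = 0.0209). That call was lost with the 2 groups fitted alone (0.102) and when an array was omitted: DKO day 2 replicate 2 (0.119) or 3 (0.0792), or DKO 2.2 ng/ml replicate 1 (0.158). The DKO difference from day 2 at 10 ng/ml was log2 -0.17 (adjusted p = 0.572).

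Myc was not called between the genotypes in any state. In naive cells the DKO to WT ratio was 0.952 (CI 0.791 to 1.15), at 2.2 ng/ml it was 0.984 (CI 0.818 to 1.18), and at 10 ng/ml 0.947 (CI 0.786 to 1.14). At day 2 the 3 DKO arrays lay below the 3 WT arrays, a separation that 23.6% of all genes showed in either direction. The ratio there was 0.786 (CI 0.653 to 0.946), and its adjusted p of 0.166 missed the threshold. Between doses, Myc was 1.30-fold higher at 10 than at 2.2 ng/ml in WT cells (adjusted p = 0.0482), but the arrays overlapped. The call was lost with the 2 groups fitted alone (0.158) and without WT 2.2 ng/ml replicate 1 (0.165) or replicate 2 (0.169), or WT 10 ng/ml replicate 2 (0.0929) or replicate 3 (0.235). In DKO cells the dose difference was log2 0.33 (adjusted p = 0.146), and the 2 dose differences were not told apart (log2 -0.06 ± 0.18; adjusted p = 0.943).

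**Figure D2:**
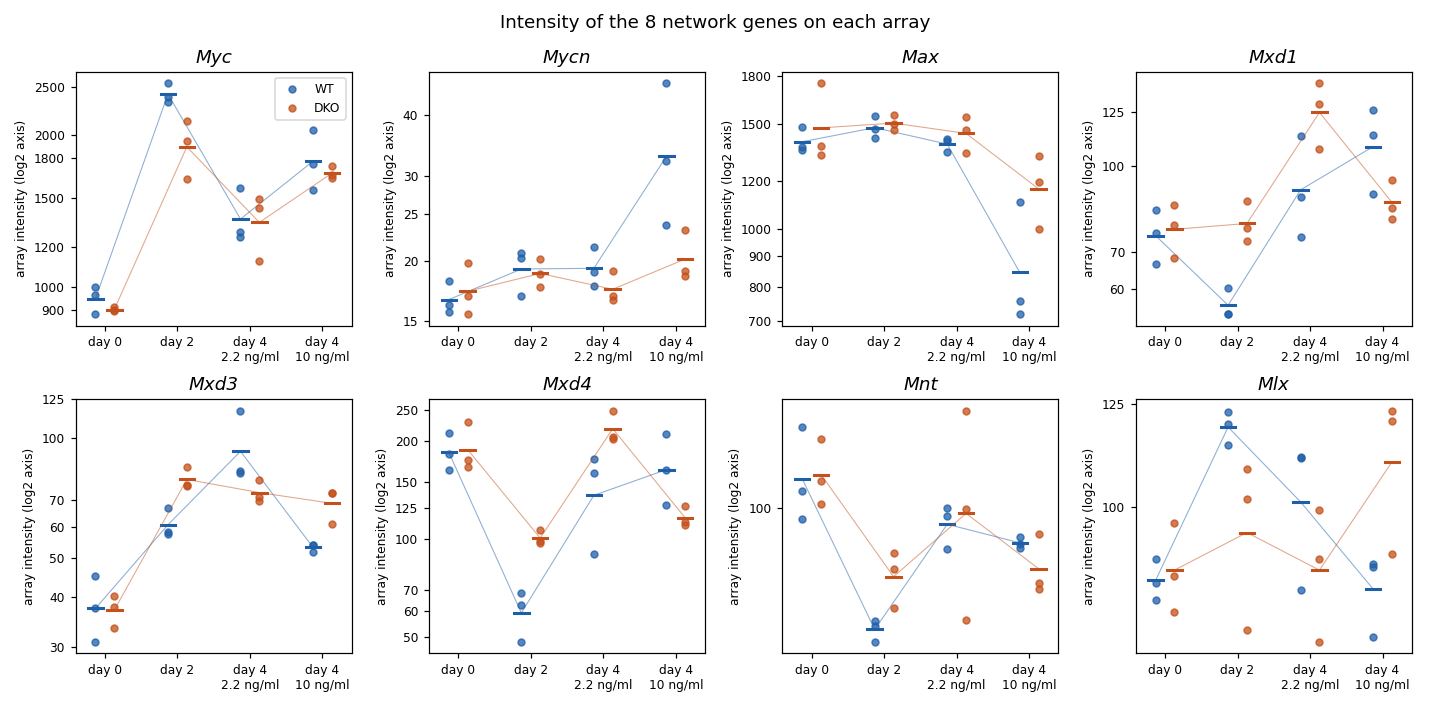
Intensity of each of the 8 genes (one panel each, log axis) on the 24 arrays, grouped by state and coloured by genotype, with a point per array and a bar at the geometric mean of the group. The Myc group mean is highest at day 2 in both genotypes, although the DKO arrays at day 2 and at 10 ng/ml overlap. Mxd4 is lowest on the WT day 2 arrays (48.5 to 68.5), and Max falls to 720 to 1108 on the WT arrays at 10 ng/ml.

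Mycn, which encodes N-MYC, was dim, and was above the median gene level of 32.2 in 1 group mean only. It read 23.7, 46.6 and 32.2 on the WT arrays at 10 ng/ml, and between 15.5 and 23.1 on every other array of the series. Its log2 intensity there was higher than in naive WT cells by 0.98 ± 0.17 (adjusted p = 4.35e-05), than at day 2 by 0.77 (adjusted p = 0.00114), and than at 2.2 ng/ml by 0.77 (adjusted p = 0.00194). The other groups lay below the median gene level, so these are differences of probe set intensity and no fold of expression is given. The WT arrays at 10 ng/ml were also above the 3 DKO arrays at that dose (19.0, 18.6 and 23.1), with a DKO minus WT difference of log2 -0.71 (adjusted p = 0.00491). That genotype difference was lost without WT 10 ng/ml replicate 2, the highest array (log2 -0.46, adjusted p = 0.0594), and with the groups fitted alone (0.0593), as was the dose difference (0.0543). The lowest WT array (23.7) lay just above the highest DKO array (23.1), and 27% of all genes separated there in either direction.

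Max, the shared partner, was bright and, as deposited, nearly level except at 10 ng/ml, where its group mean was lowest in both genotypes. In WT cells at 10 ng/ml the arrays read 758, 720 and 1108, against 1342 to 1547 on the 9 other WT arrays. Max was 1.66-fold lower than in naive cells (log2 -0.73 ± 0.14; adjusted p = 0.000199), 1.75-fold lower than at day 2 (adjusted p = 0.000117) and 1.64-fold lower than at 2.2 ng/ml (adjusted p = 0.000698), and these 3 calls held under all alternatives run (adjusted p at most 0.0254). In DKO cells the arrays at 10 ng/ml read 1324, 1197 and 1001, below the 1331 to 1751 of the 9 other DKO arrays, but the difference from day 0 was not called (log2 -0.34, adjusted p = 0.0737). It was called under loess (0.000257), quantile (0.000892), the trended robust fit (0.0455) and without DKO 10 ng/ml replicate 1 (0.0423).

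Max was 1.38-fold higher in DKO than in WT cells at 10 ng/ml (adjusted p = 0.0291), although WT replicate 3 (1108) overlapped the DKO range. This call was lost under loess (0.0586), with the groups fitted alone (0.138) and without WT 10 ng/ml replicate 1 (0.15) or 2 (0.178), or DKO 10 ng/ml replicate 1 (0.162) or 2 (0.0922). At day 2 and at 2.2 ng/ml, Max differed from day 0, and at 2.2 ng/ml from day 2, by at most 0.09 in log2 in either genotype, and none of these differences was called. Its day 2 differences from day 0 turned negative under loess, to log2 -0.47 in WT cells (adjusted p = 0.0074) and -0.36 in DKO cells (adjusted p = 0.0488), and its WT difference at 2.2 ng/ml became -0.49 (adjusted p = 0.00744). The direction of Max in those states depends on the scaling.

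Among the antagonists, Mxd4 moved furthest: its group means spanned 3.68-fold, against 1.35-fold to 2.68-fold for the 7 others. Mxd4 encodes MAD4, a MAX-binding repressor. In WT cells it read 213, 163 and 182 at day 0, 68.5, 63.0 and 48.5 at day 2, 159, 177 and 90.2 at 2.2 ng/ml, and 210, 163 and 128 at 10 ng/ml. The DKO arrays read 175, 167 and 229 at day 0, 107, 98.6 and 97.3 at day 2, 207, 203 and 248 at 2.2 ng/ml, and 126, 113 and 111 at 10 ng/ml. The day 2 arrays were the lowest of each genotype, and the day 4 arrays at 10 ng/ml were again near naive levels in WT but not in DKO cells.

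Mxd4 fell 3.11-fold from day 0 to day 2 in WT cells (log2 -1.64 ± 0.20; adjusted p = 4.22e-07) and 1.87-fold in DKO cells (adjusted p = 0.00112). It rose again by day 4 in WT cells, 2.30-fold at 2.2 ng/ml (adjusted p = 0.000317) and 2.76-fold at 10 ng/ml (adjusted p = 6.71e-06), and 2.17-fold at 2.2 ng/ml in DKO cells (adjusted p = 0.00138). These 5 calls held under all alternatives run. In DKO cells at 10 ng/ml it was log2 0.21 above day 2 (adjusted p = 0.708) and 1.62-fold below day 0 (adjusted p = 0.00989), a call lost without DKO day 0 replicate 3 (0.0675). The WT difference at 2.2 ng/ml from day 0 (log2 -0.44, adjusted p = 0.116) was called under loess (0.04), quantile (0.0186) and without WT 2.2 ng/ml replicate 2 (0.0313).

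Mxd4 was the member called between the genotypes at day 2, where the ratio was 1.70 (CI 1.27 to 2.27, adjusted p = 0.0422). The 3 DKO arrays were all above the 3 WT arrays there, a separation that 23.6% of all genes showed in either direction. The call was lost without any 1 of the 6 arrays: WT day 2 replicate 1 (0.055), 2 (0.0906) or 3 (0.195), and DKO day 2 replicate 1 (0.0957), 2 (0.0957) or 3 (0.0984). Without both WT arrays that stood apart it was 0.0764. The fall from day 0 was not shown to differ between genotypes (log2 0.74 ± 0.29; adjusted p = 0.235). At 2.2 ng/ml the DKO arrays were again all above the WT arrays, a separation 16.8% of all genes showed in either direction (ratio 1.60, adjusted p = 0.0666), a difference called with dim genes left out (0.0474) and without WT 2.2 ng/ml replicate 2 (0.0198). At 10 ng/ml, where 27% of all genes separated, they were all below (log2 -0.49, adjusted p = 0.134), and this was called without WT 10 ng/ml replicate 3 (0.0453).

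Mxd3, which encodes MAD3, a MAX-binding repressor found mainly in dividing cells, rose with Myc in all 6 comparisons with day 0. In WT cells it read 45.2, 31.0 and 37.6 at day 0, 66.7, 57.5 and 58.3 at day 2, 117, 82.9 and 81.9 at 2.2 ng/ml, and 53.9, 54.1 and 51.9 at 10 ng/ml. The DKO arrays read 40.4, 37.8 and 33.6 at day 0, 75.7, 84.6 and 76.3 at day 2, 71.4, 69.4 and 78.6 at 2.2 ng/ml, and 73.0, 60.9 and 72.8 at 10 ng/ml. The WT levels peaked at 2.2 ng/ml, and the DKO levels stayed within 60.9 to 84.6 after activation. Against day 0 the ratio in WT cells was 1.62 at day 2 (adjusted p = 0.000316), 2.47 at 2.2 ng/ml (adjusted p = 8.89e-08) and 1.42 at 10 ng/ml (adjusted p = 0.00655). In DKO cells it was 2.12 (adjusted p = 1.33e-06), 1.97 (adjusted p = 1.1e-05) and 1.85 (adjusted p = 2.09e-05). The WT call at 10 ng/ml was lost without WT day 0 replicate 2 (0.0567), and the 1.53-fold rise from day 2 to 2.2 ng/ml in WT cells (adjusted p = 0.00549) was lost without WT 2.2 ng/ml replicate 1 (0.0623).

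Mxd1 encodes MAD1, the founding MXD repressor, which is induced in many cells as they leave division. In WT cells it read 66.5, 75.5 and 83.3 at day 0, 60.2, 54.0 and 53.9 at day 2, 74.5, 113 and 88.0 at 2.2 ng/ml, and 126, 114 and 88.9 at 10 ng/ml. The DKO arrays read 85.0, 68.2 and 78.1 at day 0, 86.4, 77.1 and 73.1 at day 2, 141, 129 and 107 at 2.2 ng/ml, and 94.5, 80.0 and 83.8 at 10 ng/ml. From day 2 to day 4 it rose 1.62-fold at 2.2 ng/ml (adjusted p = 0.00356) and 1.94-fold at 10 ng/ml (adjusted p = 4.13e-05) in WT cells, and 1.59-fold at 2.2 ng/ml in DKO cells (adjusted p = 0.00946). The DKO call was lost without DKO day 2 replicate 3 (0.0527) or DKO 2.2 ng/ml replicate 1 (0.0687).

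Against naive cells, Mxd1 was 1.63-fold higher at 2.2 ng/ml in DKO cells (adjusted p = 0.00131) and 1.45-fold higher at 10 ng/ml in WT cells (adjusted p = 0.00774). The WT call was lost under quantile (0.0755) and without WT 10 ng/ml replicate 1 (0.0585). Its 1.34-fold fall at day 2 in WT cells (adjusted p = 0.0323) was lost without WT day 0 replicate 2 (0.0666) or 3 (0.134), and without WT day 2 replicate 2 (0.0862) or 3 (0.0883). It was also lost without both WT arrays that stood apart (0.0947). At day 2 the DKO arrays were all above the WT arrays, a separation that 23.6% of all genes showed in either direction. The ratio there was 1.41 (CI 1.13 to 1.75), and its adjusted p of 0.0904 missed the threshold. At 2.2 ng/ml the ratio was 1.38 (adjusted p = 0.108), called without WT 2.2 ng/ml replicate 2 (0.022).

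Mnt, the broadly expressed MAX-binding repressor, varied least, with group means spanning 1.35-fold. It read 103, 98.0 and 117 in naive WT cells and 79.6, 80.3 and 77.2 at day 2, a 1.34-fold fall (log2 -0.42 ± 0.12; adjusted p = 0.00681) that held under all 15 alternatives. In DKO cells it read 105, 114 and 101 at day 0 and 88.8, 91.6 and 82.4 at day 2 (log2 -0.28, adjusted p = 0.0837; called under quantile, 0.0362). On the day 4 arrays it lay between 80.5 and 121. Quantile renormalisation called it lower at 10 ng/ml than at day 0 in both genotypes (0.0369 in WT and 0.0213 in DKO cells), and loess called it higher at 10 ng/ml than at day 2 in WT cells (0.0441).

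Mlx read 81.9, 89.5 and 85.0 in naive WT cells and 123, 114 and 120 at day 2, a 1.39-fold rise (adjusted p = 0.0136) that was lost under loess (0.0778) and quantile (0.246). It read 87.9, 75.7 and 88.6 on the WT arrays at 10 ng/ml, 1.42-fold below day 2 (adjusted p = 0.0153), a call lost under loess (0.06) and without WT day 2 replicate 1 (0.0516) or WT 10 ng/ml replicate 2 (0.0806). In DKO cells it read 109, 102 and 76.8 at day 2 and 123, 121 and 90.4 at 10 ng/ml. The DKO arrays at 10 ng/ml were all above the WT arrays at that dose, a separation that 27% of all genes showed in either direction. The lowest DKO array, replicate 3 (90.4), lay just above the highest WT array (88.6). The difference (log2 0.40, adjusted p = 0.0944) was called without DKO 10 ng/ml replicate 3 (0.028). That array was also decisive at 10 ng/ml against day 0 in DKO cells, called without it (0.025) and not with it (0.0973).

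The genes called between the doses were not the same in the 2 genotypes: Myc and Mycn higher and Max and Mxd3 lower in WT cells, and Mxd1 and Mxd4 lower in DKO cells. A call in only 1 genotype does not show that the genotypes differ. For Myc, Mycn and Max the dose difference had the same direction in both genotypes, and the interaction was not called. In WT cells, raising anti-CD3e from 2.2 to 10 ng/ml lowered Mxd3 1.74-fold (log2 -0.80 ± 0.14; adjusted p = 0.000231), and this held under all 15 alternatives. In DKO cells the Mxd3 difference was log2 -0.09 (adjusted p = 0.841). Mxd4 was 1.88-fold lower at 10 ng/ml in DKO cells (log2 -0.91 ± 0.20; adjusted p = 0.00459; held under all 14 alternatives) and log2 0.26 higher in WT cells (adjusted p = 0.502). Mxd1 was 1.46-fold lower at 10 ng/ml in DKO cells (adjusted p = 0.0271), lost without DKO 2.2 ng/ml replicate 1 (0.154) or 2 (0.0907) or DKO 10 ng/ml replicate 2 (0.118) or 3 (0.0882), and log2 0.26 higher in WT cells (adjusted p = 0.328).

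The dose difference in DKO minus that in WT cells was log2 -1.17 ± 0.29 for Mxd4 (adjusted p = 0.0118), -0.80 ± 0.22 for Mxd1 (adjusted p = 0.0231) and 0.71 ± 0.20 for Mxd3 (adjusted p = 0.0313). Only the Mxd4 difference held under all 21 alternatives (log2 -1.36 to -0.87; adjusted p 0.0037 to 0.0478). The Mxd1 difference was lost with the groups fitted alone (0.0643), without both WT arrays that stood apart (0.062), and without WT 2.2 ng/ml replicate 1 (0.085) or 3 (0.0521), WT 10 ng/ml replicate 1 (0.0808) or 2 (0.0553), DKO 2.2 ng/ml replicate 1 (0.0753) or 2 (0.0535), or DKO 10 ng/ml replicate 2 (0.0639) or 3 (0.0503). The Mxd3 difference was lost without WT 2.2 ng/ml replicate 1 (0.114), WT 10 ng/ml replicate 1 (0.0587), 2 (0.053) or 3 (0.0562), DKO 2.2 ng/ml replicate 1 (0.0692) or 2 (0.0742), or DKO 10 ng/ml replicate 1 (0.0784) or 3 (0.0739). For Max (log2 0.41, adjusted p = 0.297), Mycn (log2 -0.56, adjusted p = 0.195) and Mlx (log2 0.61, adjusted p = 0.0949) the 2 dose differences were not told apart. The summed TH2 markers rose with dose from 1823 to 2376 up to 4682 to 5851 in WT cells, and from 820 to 857 up to 1210 to 1400 in DKO cells; the summed naive T cell markers ran from 1871 to 2879 and from 2255 to 2591 at the 2 doses in WT cells, and from 2715 to 3599 and from 2176 to 2388 in DKO cells. In DKO cells S1pr1 averaged 618 at 2.2 and 108 at 10 ng/ml, Ccr7 827 and 550, Lef1 989 and 771, and Klf2 174 and 148. Il7r, the remaining measured naive marker, went the other way, at 548 and 717. The summed CD8 list, led by Eomes, ran from 248 to 317 and from 78.5 to 103 in WT cells, and from 588 to 729 and from 120 to 180 in DKO cells. The part of these markers in the dose differences was not tested.

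**Figure D3:**
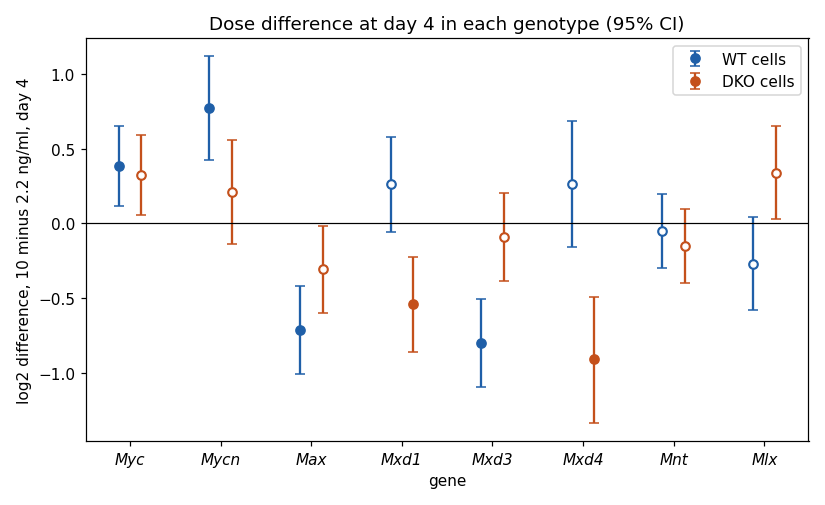
Log2 difference between 10 and 2.2 ng/ml anti-CD3e at day 4 for each of the 8 genes in WT and DKO cells, with the estimate as a point and its 95% confidence interval as a bar. Mxd4 sits at -0.91 in DKO and 0.26 in WT cells, and Mxd3 at -0.80 in WT and -0.09 in DKO cells, while the Myc intervals overlap.

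Ordered by level, the Myc group means ran from WT day 2, DKO day 2, WT and DKO at 10 ng/ml, and WT and DKO at 2.2 ng/ml down to naive WT and DKO cells. Arrays of neighbouring groups were apart at 3 of the 7 steps: WT from DKO day 2, DKO 10 ng/ml from WT 2.2 ng/ml, and DKO 2.2 ng/ml from naive WT cells. For Mxd4 they were apart at 2 of the 7 steps, DKO 10 ng/ml from DKO day 2 and DKO day 2 from WT day 2. Mycn, Max, Mxd1 and Mnt had 1 step apart each, Mxd3 had 2 and Mlx had 0.

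Across the 8 group means, which share arrays with the comparisons above, Myc ran opposite to Mnt (Pearson r = -0.968) and Mxd4 (r = -0.802), Mxd4 ran with Mnt (r = 0.913), and Mycn ran opposite to Max (r = -0.931). The last rests on the 1 group, WT at 10 ng/ml, in which both genes left their usual level. Among 4126 brighter genes with a span of at least 1 in log2, the 3 whose group means were most like those of Myc were Ipo7 (r = 0.989; 0.947 over the 24 arrays), a nuclear import receptor, Xpot (r = 0.988; 0.939), the tRNA exporter, and Hspa9 (r = 0.986; 0.964), a mitochondrial chaperone. Ipo7 averaged 151 in naive WT, 412 in WT day 2, 137 in naive DKO and 317 in DKO day 2 cells. Those most like Mxd4 were Tnfrsf26 (r = 0.973), Ifnar2 (r = 0.97), a type I interferon receptor chain, and Gimap4 (r = 0.961), a lymphocyte GTPase. For Max they were Hmces (r = 0.983), Mapk8 (r = 0.982), which encodes JNK1, and Kat2a (r = 0.963), a histone acetyltransferase that MYC can recruit. These correlations describe 8 points and carry no test.

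Genes that MYC is known to induce rose together on activation in both genotypes. All 40 measured of the 45 listed were higher at day 2 than at day 0 in WT cells (median log2 1.82, against -0.11 over all genes tested), and 37 were higher and 0 lower in DKO cells (median log2 1.33, against -0.01). Of all genes, 40.2% were called in the WT comparison and 28.6% in the DKO comparison. Under loess these counts were 37 higher and 0 lower in WT cells and 35 higher and 1 lower in DKO cells. Tfrc, the transferrin receptor, read 107, 100 and 114 in naive WT cells and 1366, 1270 and 1420 at day 2, a 12.6-fold rise (adjusted p = 2.16e-13). Slc7a5, a large amino acid transporter, rose 6.11-fold (adjusted p = 2.84e-12) and Pkm, a glycolytic kinase, 3.93-fold (adjusted p = 6.66e-12). From day 2 to day 4, 29 of the 40 induced targets were lower and 0 higher at 2.2 ng/ml in WT cells, 31 lower and 0 higher at 10 ng/ml (28 and 2 under loess), and in DKO cells 18 lower and 0 higher at 2.2 ng/ml and 12 lower and 3 higher at 10 ng/ml. The shares of all genes called in these comparisons were, in the same order, 11.2%, 23.2%, 6.17% and 5.18%. The 18 became 8 without DKO day 2 replicate 2, 10 without replicate 3 and 6 without DKO 2.2 ng/ml replicate 1. The 12 became 7 without DKO day 2 replicate 2 and 6 without DKO 10 ng/ml replicate 3, and the 3 became 1 without any array of DKO day 2 or without DKO 10 ng/ml replicate 2. Nop56, a ribosomal RNA processing factor, read 1094, 1163 and 1200 in WT cells at day 2 and 302, 305 and 334 at 10 ng/ml, a 3.68-fold fall (adjusted p = 1.14e-09).

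Genes that MYC is known to repress mostly went the other way at day 2. In WT cells 6 of the 10 measured fell and 1, Ndrg1, rose (median log2 -0.72, against -0.11 over all genes, of which 40.2% were called). In DKO cells 6 fell and 0 rose (median log2 -0.60, against -0.01 over all genes, of which 28.6% were called). Btg1, an antiproliferative factor, fell 4.01-fold in WT cells (adjusted p = 1.34e-10). Cdkn1b, which encodes the cell-cycle inhibitor p27, read 507, 648 and 493 in naive WT cells and 180, 152 and 171 at day 2 (3.25-fold lower, adjusted p = 2.12e-07). At 10 ng/ml in WT cells 6 of these genes were higher than at day 2 and 0 lower (median log2 1.13, against -0.002 over all genes, of which 23.2% were called). Ndrg1, a stress-induced gene, read 115, 119 and 70.9 at day 2 and 1157, 946 and 1085 at 10 ng/ml in WT cells.

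Of the 5 targets of MLX with MondoA, 3 fell and 1, Klf10, rose at day 2 in WT cells, where 40.2% of all genes were called. In DKO cells, where 28.6% of all genes were called, 2 fell and 1 rose, and 1 fell without DKO day 0 replicate 1 or 3. Txnip, which restrains glucose uptake, read 1550, 1732 and 1765 in naive WT cells and 194, 187 and 206 at day 2, 8.59-fold lower (adjusted p = 2.75e-10), and it fell in DKO cells too (log2 -3.07, adjusted p = 5.05e-10). All 5 were higher at 10 ng/ml than at day 2 in WT cells (median log2 1.48, against -0.002 over all genes, of which 23.2% were called), with Pdk4, a kinase that restrains glucose oxidation, 6.17-fold higher (adjusted p = 2.71e-07). Mlxip, which encodes MondoA itself, fell 2.03-fold at day 2 in WT cells (adjusted p = 0.000379) and also in DKO cells (log2 -0.93, adjusted p = 0.00124).

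The list of other network and related proteins held 10 genes: Mycl, Mxi1, Mga, Mlxip, Mlxipl, Usf1, Usf2, Tfe3, Tfeb and Mitf. Of these, Mxi1 changed most with dose. Mxi1 encodes MXI1, the remaining MXD-type repressor. It read 123, 111 and 87.3 at 2.2 ng/ml and 368, 296 and 365 at 10 ng/ml in WT cells, 3.22-fold higher (adjusted p = 4.41e-07), and 68.6, 81.9 and 92.7 against 193, 207 and 222 in DKO cells, 2.57-fold higher (adjusted p = 2.34e-05). It was 1.65-fold lower in DKO than in WT cells at 10 ng/ml (adjusted p = 0.0104), lost without WT 10 ng/ml replicate 1 (0.0506). Of the 17 measured cofactors, 9 were higher and 2 lower at day 2 in WT cells (median log2 0.50, against -0.11 over all genes, of which 40.2% were called), among them Ruvbl1 (4.18-fold) and Ruvbl2 (3.27-fold), the paired ATPases of chromatin remodelling complexes. At 10 ng/ml 10 of the 17 were lower and 0 higher than at day 2 in WT cells (8 lower under loess), where 23.2% of all genes were called. Among 13 genes of MYC turnover and stability, 4 were higher and 4 lower at day 2 in WT cells (median log2 -0.19; 3 and 7 under loess). Cip2a, which protects MYC from dephosphorylation, rose from 15.1, 15.3 and 17.3, levels below the median gene, to 266, 285 and 318 (adjusted p = 8.83e-15), and the F-box protein gene Skp2 rose 3.82-fold (adjusted p = 5.69e-10).

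Between the genotypes, 0 of the 95 measured genes of the 6 lists were called by limma in naive cells (0.0652% of all genes), and 3 passed an unadjusted p under 0.05. At day 2, 5 of the 40 induced targets were lower in DKO cells and 0 higher (median log2 -0.42, against 0.04 over all genes, of which 2.71% were called): Cad, Ldha, Hk2, Slc2a1 and Slc3a2. That count was 2 under loess, 3 under quantile, 9 with the groups fitted alone, and 2 without both WT arrays that stood apart. Omitting 1 array left 3 (DKO day 2 replicate 1), 2 (WT day 2 replicate 3) or 1 (any of the other 4 arrays). Hk2, hexokinase 2, read 209, 213 and 177 on the WT and 65.8, 60.8 and 73.9 on the DKO arrays, 2.99-fold lower (adjusted p = 0.00016; held under all 15 alternatives). Among the 10 repressed targets 2 were higher and 1 lower in DKO cells. Cdkn1b was 2.25-fold higher (adjusted p = 0.00116) and Ndrg1 3.37-fold lower (adjusted p = 2.53e-06). Gadd45a, a DNA damage response gene, was higher by log2 0.77 (adjusted p = 0.0345), lost under quantile (0.0622), with the groups fitted alone (0.071) and without DKO day 2 replicate 2 (0.106) or 3 (0.192) or WT day 2 replicate 1 (0.172) or 2 (0.0886). The count lower was 2 without WT day 2 replicate 3, without DKO day 2 replicate 1, and without both WT arrays that stood apart. At 2.2 ng/ml, where 3.71% of all genes were called, 4 induced targets were lower in DKO cells and 0 higher, namely Ldha, Pkm, Hk2 and Slc2a1, and 2 were with the groups fitted alone.

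At 10 ng/ml, 9 of the 40 induced targets were higher, 2 lower and 29 not called in DKO against WT cells (median log2 0.26, against 0.03 over all genes, of which 12.8% were called), with 5 higher without DKO 10 ng/ml replicate 2 or WT 10 ng/ml replicate 2, and 14 without WT 10 ng/ml replicate 3. Nop56 was 1.78-fold higher in DKO cells (adjusted p = 0.000251), while Hk2, singled out after its values were seen, was lower (log2 -0.75, adjusted p = 0.0314), lost without DKO 10 ng/ml replicate 1 (0.128) or 2 (0.0957) or WT 10 ng/ml replicate 1 (0.0733) or 3 (0.148). Cip2a was 2.46-fold higher (adjusted p = 2.22e-05) and Skp2 1.90-fold higher (adjusted p = 0.000191). The cofactors Kat2a, Sin3a, Hdac1 and Hdac2 were higher in DKO cells, and 0 were lower. Of the MLX and MondoA targets 3 were lower, Txnip, Arrdc4 and Klf10. That count was 1 with the groups fitted alone, without WT 10 ng/ml replicate 1 or 2, and without DKO 10 ng/ml replicate 2. Klf10, a zinc-finger repressor, was 1.70-fold lower (adjusted p = 0.00299).

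The dose difference at day 4 differed between the genotypes for 9 induced targets, all more positive in DKO cells, and for 3 genes of MYC turnover, Skp2, Aurka and Cip2a, also more positive. Over all genes, 6.94% were called in this interaction. The MLX-MondoA targets Txnip, Arrdc4 and Klf10 were more negative, and Klf10 (log2 -1.05, adjusted p = 0.00733) was the one of these that held under all 21 alternatives. The 9 became 5 without WT 2.2 ng/ml replicate 3, without DKO 10 ng/ml replicate 2, or without both WT arrays that stood apart. Cip2a read 228, 232 and 286 at 2.2 ng/ml and 108, 74.9 and 116 at 10 ng/ml in WT cells, and 141, 173 and 174 against 251, 235 and 236 in DKO cells (log2 1.90 ± 0.27; adjusted p = 3.86e-05). Slc1a5, a glutamine transporter, differed by log2 1.41 (adjusted p = 0.000471) and Slc2a1, the glucose transporter GLUT1, by log2 1.32 (adjusted p = 0.00366), and these held under all 21 alternatives.

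**Figure D4:**
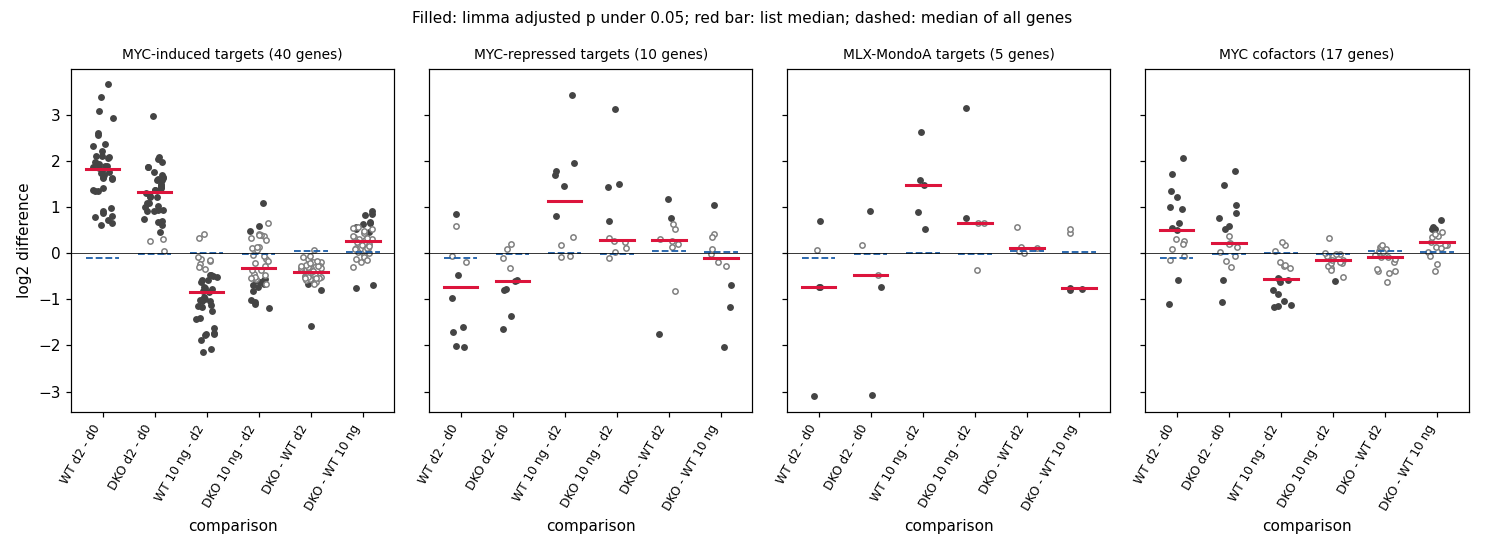
Log2 difference of every measured gene of 4 lists (MYC-induced and MYC-repressed targets, MLX-MondoA targets and MYC cofactors) in 6 comparisons, with a point per gene, filled where limma's adjusted p was under 0.05, a red bar at the list median and a dashed line at the median of all genes. The induced targets lie almost wholly above 0 at day 2 against day 0, with medians of 1.82 in WT and 1.33 in DKO cells, and the repressed targets have medians of -0.72 and -0.60.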

How the data were processed

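The deposited table holds linear intensities of 24 arrays, made by the authors with RMA per the submitters' processing notes; the array's genome build is not given in the sources used here. Log2 of these intensities was analysed without further normalisation. Of 35556 probe sets, 21789 named 1 gene symbol, 1621 several and 12146 none listed; the brightest probe set by mean log2 stood for each of 19938 genes, and 999 genes had several. Entrez numbers matched 21698 probe sets to RefSeq, which changed 0 symbols. limma 3.58.1 in R 4.3.3 fitted 8 group means (16 residual and 7.49 prior degrees of freedom) and 19 contrasts, 16 of 2 groups and 3 interactions, with Benjamini-Hochberg adjustment within each over all genes. SE is the moderated standard error, and intervals are 95%. The number of arrays limits precision.

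The 8 genes and all lists were chosen with earlier results of these data known, so their directions are not independent evidence. Named were the 8 genes, up to 4 genes per list and comparison by smallest p, the 3 genes most like each member, and, after their values were seen, genes making up counts of 5 or fewer. Lists are described by counts and medians, with no test. The lists were other network and related proteins, cofactors, turnover genes, induced and repressed MYC targets, and MLX-MondoA targets. The alternatives were dim genes left out, every probe set, the mean of probe sets, cyclic loess, quantile, compared groups alone, a replicate block, a trended robust fit, each array left out and, added after seeing the data, 2 WT arrays left out together. Each of the 8 genes had 1 probe set and passed the dim filter. For them the first 3 alternatives used unchanged values and could move only the moderated spread and the adjustment. Holding under those 3 is therefore a weak check. The fit was tested on simulated data for DKO against WT cells at day 2. Of 50 genes changed at each size, it recovered 17 at log2 0.5, 48 at 1, and 50 at 2 and at 3. Of its 173 calls, 8 were on unchanged genes. Genotype differences of 0.5 or less can therefore be missed, and larger ones can be too. No size between 0.5 and 1 was simulated, and the simulation covered day 2 only. In the data, for example, the Mxd4 difference at 2.2 ng/ml was log2 0.68 and was not called (limma adjusted p = 0.0666).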

Additional observations from a re-analysis of the deposited data

Results flagged for a closer look

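For 3 of the 8 genes, the difference between 10 and 2.2 ng/ml anti-CD3e at day 4 differed between DKO and WT cells by the interaction term of the limma fit, taken as DKO minus WT on the log2 scale. It was -1.17 for Mxd4 (SE 0.29, adjusted p = 0.0118), -0.80 for Mxd1 (SE 0.22, adjusted p = 0.0231) and 0.71 for Mxd3 (SE 0.20, adjusted p = 0.0313). The Mxd4 value stayed called under all 21 alternatives, and the Mxd1 and Mxd3 values were each lost under several single-array omissions.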

How the results depend on the processing

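Over 2344 values of the 8 genes under the alternatives, 2243 kept their side of the threshold, 70 lost a call and 29 gained one. Values not called in either fit count among the 2243 even where their sign changed. The alternatives without dim genes, with every probe set and with the mean of probe sets used unchanged values of the 8 genes. They also count among the 2344. Direction was compared only where a value was called as deposited or under the alternative, and 2 of those reversed. The 2 were Max at day 2 against day 0 under cyclic loess, at log2 -0.47 in WT (0.08 as deposited) and -0.36 in DKO cells (0.03). The cause was not tested. Renormalisation moved the median of all genes by up to 0.106.

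Only the larger moves in counts are listed here and in the next paragraph, and smaller moves also occurred. Under loess at day 2 against day 0 in WT cells, for example, Max and Mycn gained a call and Mlx lost its call. The larger moves of the 8 genes were as follows. In DKO cells at 10 ng/ml against day 0, 3 became 5 under quantile. Between genotypes, 1 at day 2 became 0 with 2 WT arrays left out, 0 at 2.2 ng/ml became 1 with dim genes left out, and 2 at 10 ng/ml became 1 under loess and 0 with the groups fitted alone. In WT cells, 4 between doses became 2 with the groups alone. In the interaction of genotype with 10 ng/ml against day 0, 0 became 1 with dim genes left out, under loess and under quantile. Over all genes, 13 between naive genotypes became 4 under loess and 2 with the groups alone, and 739 at 2.2 ng/ml became 462 with the groups alone.

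Leaving out 1 array at a time moved the count of all genes called from 2233 to between 1223 and 2645 (WT 2.2 ng/ml against day 2), from 1230 to 564 to 1301 (DKO 2.2 ng/ml against day 2), from 1033 to 583 to 984 (DKO 10 ng/ml against day 2), from 13 to 4 to 14, from 541 to 298 to 590 and from 739 to 489 to 819 (DKO against WT at day 0, day 2 and 2.2 ng/ml), from 1625 to 1058 to 1453 (DKO dose), and from 209 to 98 to 257 (day 2 interaction). Of the 8 genes it moved the count from 3 to 1 to 3 (DKO 2.2 ng/ml against day 2), 1 to 0 (DKO against WT at day 2), 0 to 0 to 2 (at 2.2 ng/ml), 2 to 0 to 3 (at 10 ng/ml), 2 to 1 to 2 (DKO dose), 0 to 0 to 1 (interaction at 10 ng/ml against day 0) and 3 to 1 to 3 (dose interaction).

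Replicate numbers were checked for pairing of the arrays: in 0 of 16 comparisons was every same-numbered pair correlated over 0.1 (range -0.147 to 0.342). Single pairs passed that limit, such as replicates 2 (0.188) and 3 (0.342) between the WT doses. Differently numbered pairs were not compared, so a shared source of same-numbered arrays is not excluded. With the number as a replicate block, the count of the 8 genes was the same in all 19 comparisons (6 at day 2 against day 0 in WT cells), and 7971 in place of 8017 genes were called there. Mycn lay near the median gene level in WT cells at 10 ng/ml and below it in the other groups, which limits what can be measured of it.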
